A study of Mus musculus with 15 samples.

Results

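The genes described here are the complement and coagulation factors that the liver makes for blood plasma. The members were 39 genes chosen by symbol, covering complement, the lectin pathway, clotting and fibrinolysis, and their probe sets were looked up in the annotation of the array. Of the 39 members, 35 had a probe set of their own and were among the 12393 genes tested. C4b had only a probe set shared with another gene and is not named with a value, and C3, Cfd and Cpb2 are not analysed here.

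Liver RNA came from male mice aged 3 months, labelled as 3 biological replicates in each of 5 groups, 15 arrays in all. The Z and M lines carry an inducible human alpha1-antitrypsin transgene that is expressed in hepatocytes and is shut off by doxycycline. Z is the mutant form, which misfolds and stays in the endoplasmic reticulum of the hepatocyte, and M is the wild type form. The on groups, Z-on and M-on, expressed the transgene because they were kept without doxycycline. The off groups, Z-off and M-off, had 40 µg/mL of the drug in their water from conception onwards. Nontransgenic littermates without the drug made up the fifth group. On and off mice of a line differed in doxycycline as well as in transgene expression, so the drug and the protein cannot be told apart in the on-off comparisons. The off groups also differed from littermates in the drug as well as in the transgenic line. The human transgene itself was not measured here.

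Complement and clotting are cascades of plasma proteases that circulate as inactive precursors and are made mainly by hepatocytes. Complement starts through antibody, through lectins that bind sugars on microbes, or through slow spontaneous turnover. All these routes cleave C3 and then C5 and end in a pore built from C5b to C9. Clotting runs from tissue factor or contact proteins through factor X and thrombin to fibrin, and plasmin dissolves the clot. Proteins of both cascades pass through the endoplasmic reticulum before secretion, the compartment in which Z alpha1-antitrypsin is retained.

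Several facts of the arrays moved with the groups. Bacterial poly-A control RNAs read 1.85 to 5.6 (median of the controls on an array) on the 6 on arrays, 51.7 to 69.3 on the 6 off arrays and 40.8 to 49.5 on the littermate arrays. The 18S rRNA 5′ probe set read 1830 to 2681 on the on arrays, 154 to 568 on the off arrays and 75 to 286 on the littermate arrays. The ratio of the actin 3′ to 5′ probe sets was 1.29 to 1.73, 1.66 to 2.06 and 2.34 to 2.46 in the same order. The 98th percentile of signal was 2005 to 2288 on the on arrays, 2352 to 2465 on the off arrays and 2417 to 2456 on the littermate arrays, while the array median was 43.9 to 54.9, 30.4 to 32.2 and 42.3 to 44.9. The arrays labelled M-on 1 and 2 had Xist signals of 1149 and 226 against 13.7 to 74.3 outside the M-on group, and Eif2s3y, a Y-linked gene, read 0.4 and 1.3 there against 105 or more, although the label says male. M-on 3 read 32.6 for Xist and 42.1 for Eif2s3y. The summed signal of 12 hepatocyte markers was 68766 to 74690 (Z-on), 81356 to 96766 (Z-off), 72110 to 83156 (M-on), 80822 to 91454 (M-off) and 115373 to 136840 (littermates). Kupffer cell markers (7 measured) summed to 2314 to 2746 on M-on arrays against 1142 to 1440 on Z-on, 1076 to 1645 on Z-off, 1348 to 1405 on M-off and 1591 to 2680 on littermate arrays. None of the 7 Kupffer cell markers passed the test in the Z line and 6 rose in the M line. Of the hepatocyte markers 4 fell in the Z line, and in the M line 2 fell and 1 rose. Of all genes 31.8% rose and 7.56% fell in the Z line, and 38.1% rose and 12.5% fell in the M line. The part of these differences in the results below was not tested, beyond the values given after quantile normalization and without M-on 1 and 2. In whole liver, fewer cells of a type and less RNA per cell cannot be told apart.

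Many complement and clotting genes were called lower, and few higher, in livers that expressed either form of alpha1-antitrypsin than in livers of the same line with the transgene off. In the Z line 13 of 35 members fell and 2 rose, where 7.56% of all genes fell and 31.8% rose. In the M line 17 fell and 3 rose, where 12.5% of all genes fell and 38.1% rose. A member was called when the adjusted p of limma's two-sided test, adjusted by Benjamini-Hochberg over all 12393 genes, was under 0.05, and changes are differences of log2(signal + 16). On and off arrays did not overlap for 25 of 35 members in the Z line and 21 in the M line, against 55% and 58.1% of all genes. Z-on and M-on were apart from littermates for 28 and 22 members, against 32.2% and 34.3%. Z-off and M-off were apart from littermates for 15 and 17, against 42.1% and 45.8%. Z-on and M-on were apart for 11, against 19.2%, and Z-off and M-off for 8, against 19.5%. The median change of the members was -0.36 in each line, against 0.25 and 0.29 over all genes. Bright genes as a whole read lower on the on arrays. Among the 691 genes with a mean signal of at least 1000, a limit chosen after the values were seen, 29.7% fell in the Z line and 30.8% in the M line, and their median changes were -0.24 and -0.14. Quantile normalization, which gives every array the same distribution, moved the median of all genes to 0.05 and 0.10 and that of the members to -0.11 and -0.17. It left 6 members lower and 2 higher in the Z line, against 10.4% and 15.8% of all genes, and 11 lower and 2 higher in the M line, against 15.4% and 23.6%. Without M-on 1 and 2, 9 members were lower and 1 higher in the M line, against 11.3% and 27.1% of all genes.

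**Figure D1:**
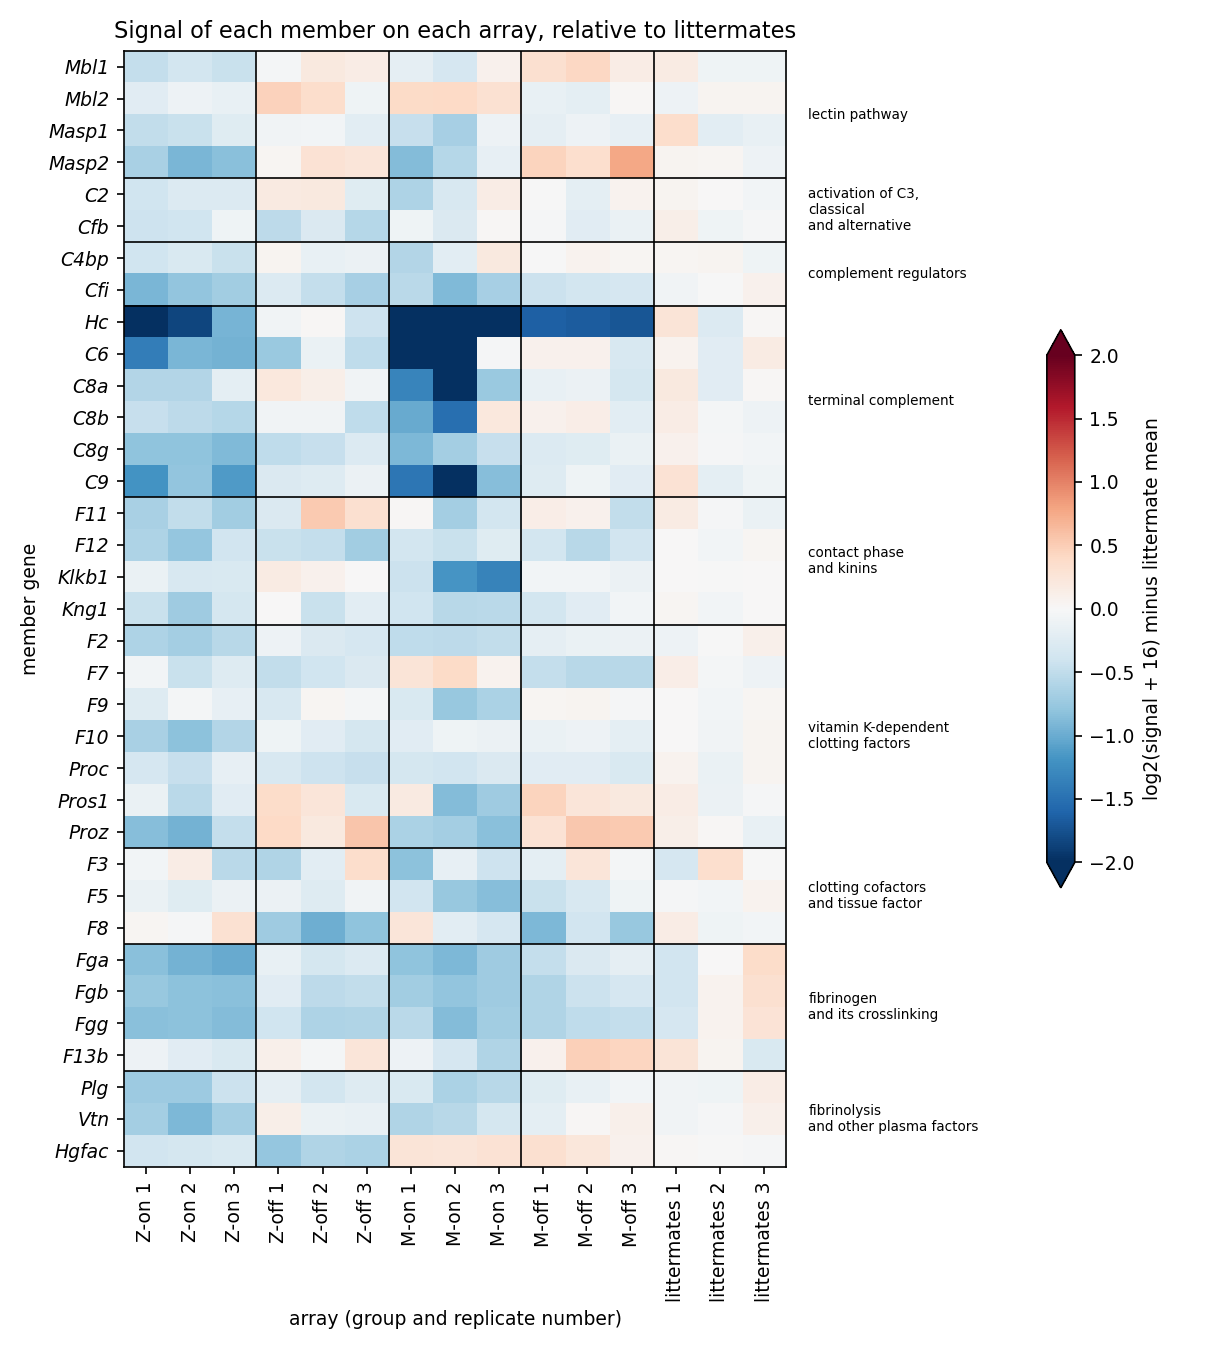
Each row is a member, grouped by role, and each column is 1 of the 15 arrays; colour gives log2(signal + 16) minus the mean of the 3 littermate arrays, cut at 2 log2 units either way. Hc is dark on the M-on and M-off arrays and on Z-on 1 and 2, and C6, C8a and C9 are dark on M-on 1 and 2.

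**Figure D2:**
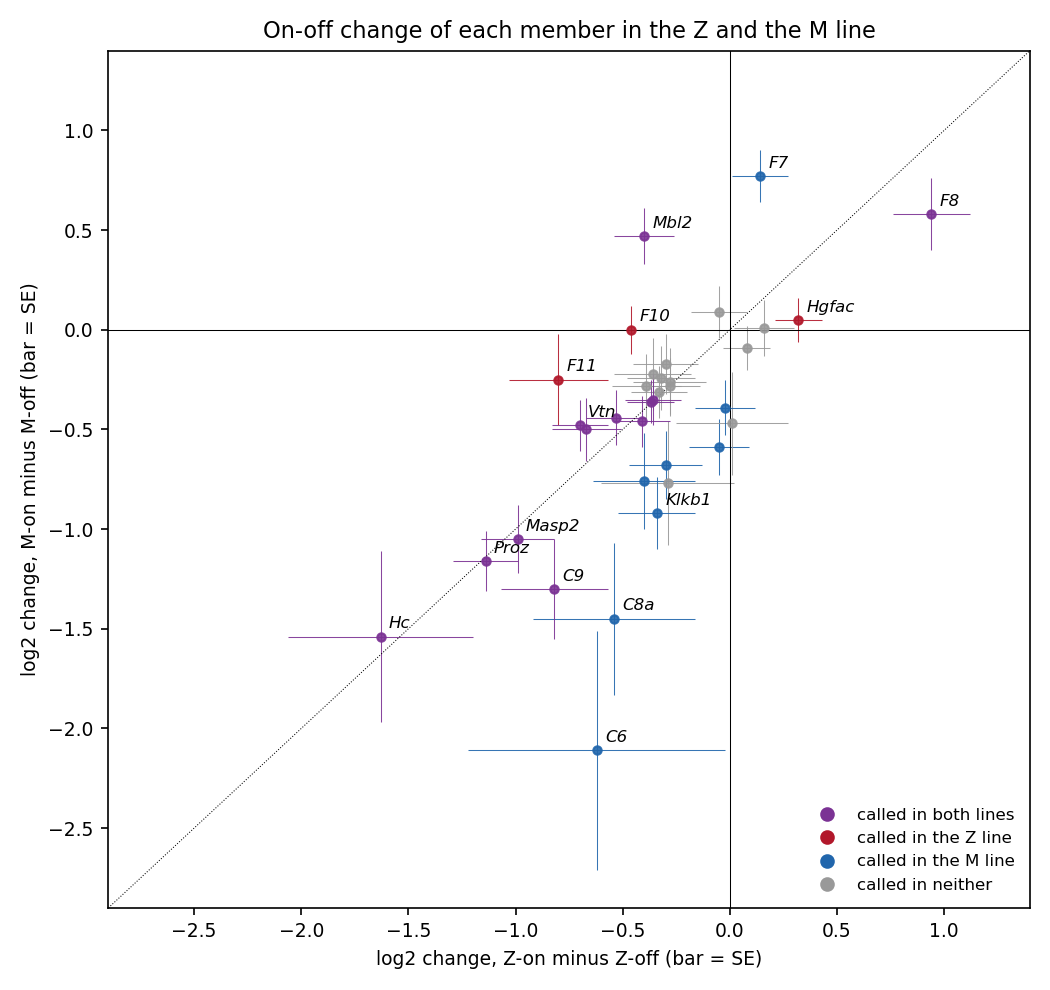
Each point is a member with its log2 on-off change in the Z line (x) and in the M line (y), with bars of 1 standard error of the contrast; colour shows the line in which it was called and the dotted line marks equal change. The 10 members lower in both lines lie at lower left, and Mbl2 lies at -0.40 and 0.47.

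Some members were called lower in both lines. C8g, C9, F2, Fga, Hc, Masp2, Mbl1, Plg, Proz and Vtn fell in both. These 10 members make up 76.9% of the Z line's falls and 58.8% of the M line's. F8 rose in both. The matching overlap over all genes was not counted, so whether it is larger for the members is not known. After quantile normalization 3 members were lower in both lines (Hc, Masp2 and Proz), 50% of the Z line's falls and 27.3% of the M line's. Without M-on 1 and 2 they were 5 (those 3 with C9 and Klkb1), 26.3% of the 19 falls then called in the Z line, where 9.69% of all genes fell, and 55.6% of the 9 in the M line. In that fit C8g, F2, Fga, Mbl1, Plg, Vtn, C6, C8a, F8 and Mbl2 lost their calls in the M line. Hc, Masp2 and Proz fell in both lines in the main test, after quantile normalization, without M-on 1 and 2 and under every other alternative fit run on their chosen probe sets. The on-off comparisons of the Z and M lines share no arrays. A test of whether the on-off change differed between the lines passed for 0 of 35 members, against 0.613% of all genes, and for 5 members at an unadjusted p under 0.05 (F10, F7, F9, Klkb1 and Mbl2), against 15.2% of all genes. Without M-on 1 it passed for 3 members (F9, Klkb1 and Mbl2), without M-on 3 for C6 and without Z-off 3 for Mbl2. The shares of all genes in these fits were not counted.

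Calls of some members turned on single arrays. In the Z line the call of Mbl2 was lost without Z-on 1, 2 or 3 or Z-off 1 or 2, that of C9 without Z-on 1 or 3 or Z-off 3, that of C8g without Z-on 3 or Z-off 3, those of F2 and Hgfac without Z-off 1 or Z-on 2, that of Hgfac also without Z-on 3, and that of F11 without Z-off 2. In the M line the call of F5 was lost without M-on 2 or 3 or M-off 2 or 3, that of Pros1 without M-on 2 or 3 or M-off 1, that of Fga without M-on 2 or M-off 2 or 3, that of Mbl1 without M-on 2 or M-off 2, that of F8 without M-on 1 or M-off 1, and that of C6 without M-on 2. Plg lost its call in each line under most of the 15 fits that left out 1 array.

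For C4bp, Hc, Fga, C9 and Klkb1, 5 of the members with values on every array, the 250 bases before the transcription start held a match to an HNF1 or C/EBP motif, those of liver transcription factors, and these windows show where it lies. Promoters are from RefSeq on GRCm38.p6 and were found for 28 of the 35 tested members. Motifs were searched on both strands. The background was counted per promoter and the members per gene, so their shares are not in the same unit. The HNF1 motif GTTAATNAT occurred in 0.737% of 32851 promoters and in 4 of the 28 members, C4bp, F13b, Fga and Hc. The C/EBP motif TTGCNNAA occurred in 9.56% of promoters and in 6 members, C9, F11, F9, Fga, Fgb and Klkb1. The windows below are 61 bases long, read 5′ to 3′ on the strand of the gene, with the match in capitals. They lie at chr1:130661648-130661708 (minus strand, C4bp), chr2:35061455-35061515 (minus strand, Hc), chr3:83026081-83026141 and chr3:83025992-83026052 (plus strand, Fga), chr15:6445188-6445248 (plus strand, C9) and chr8:45294978-45295038 (minus strand, Klkb1).
C4bp, HNF1: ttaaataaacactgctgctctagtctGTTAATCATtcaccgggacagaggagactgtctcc
Hc, HNF1: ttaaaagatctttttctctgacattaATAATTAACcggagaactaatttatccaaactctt
Fga, HNF1: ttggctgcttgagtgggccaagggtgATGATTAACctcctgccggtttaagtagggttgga
Fga, C/EBP: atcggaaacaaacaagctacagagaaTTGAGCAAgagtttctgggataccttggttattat
C9, C/EBP: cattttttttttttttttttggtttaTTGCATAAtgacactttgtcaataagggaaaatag
Klkb1, C/EBP: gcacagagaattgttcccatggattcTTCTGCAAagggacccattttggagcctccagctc
The HNF1 match starts 77 bases before the start site in Hc, 64 in C4bp and 46 in Fga. Matches to the STAT3 motif TTCNNNGAA were in 7 of the 28 members (C8a, F9, Fga, Fgb, Hgfac, Masp2 and Pros1) and in 7.02% of promoters. No member matched the HNF4 motif CAAAGTCCA, the C/EBP palindrome TTGCGCAA (a case of TTGCNNAA), the D-box TTATGTAA or the E-box CACGTG, which occurred in 0.384%, 0.164%, 0.819% and 6.02% of promoters. A match describes the letters and does not show that a factor binds there.

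The lectin pathway starts complement when mannose-binding lectins on a microbe activate the proteases Masp1 and Masp2. Of its 4 members 3 fell in the Z line, and in the M line 2 fell and 1 rose. Masp2, the protease that cleaves C4 and C2, read 498, 413 and 437 on Z-on arrays, 818, 976 and 936 on Z-off, 427, 531 and 706 on M-on, 1079, 1007 and 1370.3 on M-off, and 826, 818 and 737 on littermate arrays. All 6 on arrays lay below all 9 others. The change was -0.99 (SE 0.17, adjusted p = 6.06e-04) in the Z line and -1.05 (SE 0.17, adjusted p = 2.46e-04) in the M line. A further probe set for Masp2 changed by -1.08 and -1.38, also called in both lines. Mbl1, a mannose-binding lectin, read 915, 987 and 935 on Z-on arrays, 1237, 1461 and 1414.5 on Z-off, 1124, 1009 and 1357 on M-on, 1592, 1708 and 1417 on M-off, and 1427, 1209 and 1209 on littermate arrays. It changed by -0.53 (adjusted p = 0.0079) and -0.44 (adjusted p = 0.0165), and neither fall passed after quantile normalization (adjusted p = 0.0857 and 0.125). The change of Mbl1 with M was -0.21 without M-on 1 and 2 (adjusted p = 0.374).

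Mbl2, the other mannose-binding lectin, was called in opposite directions in the lines. It read 2280.0, 2508 and 2428 on Z-on arrays, 3684, 3447 and 2538 on Z-off, 3505, 3549 and 3332 on M-on, 2420.3, 2337 and 2731 on M-off, and 2491, 2786 and 2784 on littermate arrays. On and off arrays did not overlap in either line, as was so for 55% of all genes in the Z line and 58.1% in the M line. The change was -0.40 (SE 0.14, adjusted p = 0.0344) with Z and 0.47 (SE 0.14, adjusted p = 0.0122) with M, and these changes differed by -0.87 (SE 0.20), with an adjusted p of 0.0662. After quantile normalization the fall with Z was -0.20 (adjusted p = 0.346) and the rise with M 0.69 (adjusted p = 0.00222). The rise of Mbl2 with M lost its call without M-on 1 and 2 (0.42, adjusted p = 0.126). Masp1, which activates Masp2, read 603 to 1236 and passed in none of the 9 comparisons. Its probe sets disagreed. The brightest changed by -0.28 and -0.26, not called, while a dimmer probe set rose by 0.79 and 0.88 (adjusted p = 2.56e-04 and 6.59e-05 among all probe sets). Another, dimmer still, rose by 0.41 and 0.38 (adjusted p = 0.0122 and 0.0131). Both were also called higher than littermates in Z-on and in M-on. The remaining probe sets changed by 0.25 and 0.14 and by 0.23 and 0.28, not called.

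C2 and Cfb are the proteases of the enzyme complexes that cleave C3, in the classical and lectin pathways and in the alternative pathway. Neither was called in the on-off comparison of either line. C2 read 359, 389 and 392.5 on Z-on arrays, 542, 547 and 401 on Z-off, 306, 377.5 and 528 on M-on, 471, 414 and 499.7 on M-off, and 492, 479 and 457.5 on littermate arrays. Its largest change was -0.36 in the Z line (adjusted p = 0.122), where the groups did not overlap. Cfb read 1750.1, 1769.5 and 2192 on Z-on arrays, 1626, 1909 and 1560.5 on Z-off, 2203, 1909 and 2371 on M-on, 2291, 2003 and 2126 on M-off, and 2527, 2197 and 2299 on littermate arrays. All Z-off arrays lay below the littermates, and in the main test it was called only in that comparison, -0.46 (adjusted p = 0.0248). The soluble regulator C4bp, a cofactor for cleavage of C4b, read 1946, 2083 and 1897.5 on Z-on arrays, 2689, 2323.5 and 2391 on Z-off, 1708, 2230.1 and 2954 on M-on, 2575, 2709 and 2654 on M-off, and 2653, 2673.5 and 2434 on littermate arrays. The Z-on arrays lay below all Z-off, M-off and littermate arrays, while M-on spanned them. C4bp was called in none of the comparisons of the main test, but without M-on 1 and 2 Z-on was called below each of Z-off (-0.32, adjusted p = 0.0297), M-on (-0.58, adjusted p = 0.0284) and littermates (-0.39, adjusted p = 0.0291). Cfi, the protease that inactivates C3b and C4b, read 3385, 3672 and 3943 on Z-on arrays, 5289.5, 4591.5 and 4028 on Z-off, 4408, 3460.0 and 4035 on M-on, 4713, 4920 and 5081 on M-off, and 6046, 6368 and 6757 on littermate arrays. All transgenic arrays lay below the littermates. Against littermates Cfi changed by -0.80 with Z and -0.69 with M (adjusted p = 0.00222 and 0.00288), and it was also called lower in Z-off and M-off, at -0.47 and -0.38 (adjusted p = 0.0206 and 0.0487). After quantile normalization none of the 4 passed, the on-group changes being -0.34 and -0.31.

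The terminal complement genes, whose products build the membrane pore, included the largest single falls. Of 6 members 3 fell in the Z line (Hc, C8g and C9) and 5 in the M line (the same 3 with C6 and C8a), with role medians of -0.58 and -1.38. The M line median was -0.39 without M-on 1 and 2, where Hc and C9 were the terminal members called lower. Hc encodes complement C5, whose cleavage releases the attractant C5a and starts the pore. It read 503, 872 and 1643 on Z-on arrays, 3003, 3181 and 2351 on Z-off, 757, 195 and 230.0 on M-on, 1003, 976 and 952 on M-off, and 3742, 2586 and 3202 on littermate arrays. Each on group lay below its off group, and the M-off arrays lay below every Z-off and littermate array. The on-off change of Hc was -1.63 (SE 0.43, adjusted p = 0.00902) with Z and -1.54 (SE 0.43, adjusted p = 0.0094) with M.

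With the transgene off, Hc was below littermates in the M line. M-off minus littermates was -1.67 (adjusted p = 0.0127) and Z-off minus littermates -0.15 (adjusted p = 0.828). The direct difference, Z-off minus M-off, was 1.51 with groups apart, and it did not pass in the fit of all groups (adjusted p = 0.19) but was called in the fit of those groups alone. Against littermates, M-on read -3.20 (adjusted p = 4.52e-04), the largest change of any member in any of the 9 comparisons of the main test, and Z-on -1.79 (adjusted p = 0.0168). The Z-on and M-on arrays overlapped, and their difference of 1.42 did not pass (adjusted p = 0.075), whereas without M-on 1 and 2 it was 1.89 (adjusted p = 0.0193).

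**Figure D3:**
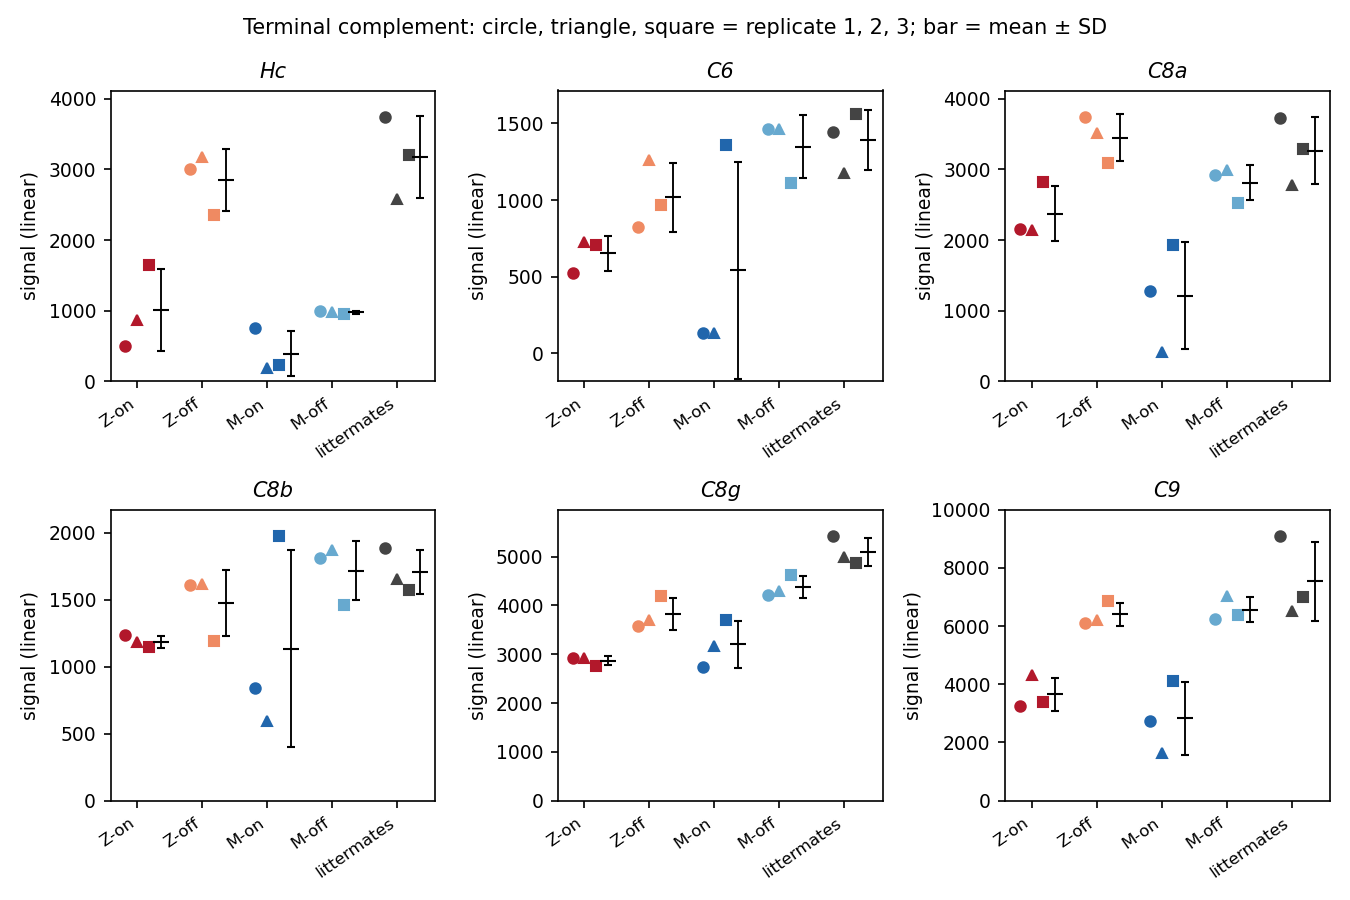
Linear signal of the 6 terminal complement members on each array, by group, with replicates 1, 2 and 3 as circle, triangle and square and a bar for the mean ± SD of 3 arrays. C6 reads 136 and 132 on M-on 1 and 2 but 1359 on M-on 3, and Hc reads 952 to 1003 on M-off arrays against 2351 to 3181 on Z-off arrays.

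C6, C8a and C8b, singled out after their values were seen, read lower on M-on 1 and 2, the arrays with high Xist, than on M-on 3. C6, the first protein that joins C5b, read 136, 132 and 1359 on M-on arrays against 1465, 1466 and 1111 on M-off arrays, so M-on 3 lay within the M-off range. Its change of -2.11 (SE 0.60, adjusted p = 0.00976) became 0.02 (adjusted p = 0.954) without M-on 1 and 2. C8a, a subunit of the C8 complex that enters the membrane, read 1285, 418 and 1934 on M-on and 2927, 2989.9 and 2524 on M-off arrays. Its change of -1.45 (adjusted p = 0.00574) became -0.53 (adjusted p = 0.0722), with M-on 3 still below every M-off array. C8b, its partner subunit, read 839, 591 and 1974 on M-on arrays and was not called (-0.77, adjusted p = 0.0513; 0.21 without the 2 arrays). On M-on 1 and 2 all 3 genes read below every array of the other groups.

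C9, which polymerizes into the wall of the pore, fell in both lines and also without those arrays. It read 3248, 4312 and 3406 on Z-on arrays, 6123, 6227 and 6858 on Z-off, 2742, 1627 and 4125 on M-on, 6252, 7051 and 6367 on M-off, and 9092, 6532 and 7016 on littermate arrays. All 6 on arrays lay below the other 9. The change was -0.82 (SE 0.25, adjusted p = 0.0204) with Z and -1.30 (SE 0.25, adjusted p = 8.10e-04) with M, which became -0.66 (adjusted p = 0.0289) without M-on 1 and 2. The Z change did not pass after quantile normalization (-0.59, adjusted p = 0.122). C8g, the small subunit of C8, changed by -0.41 and -0.46 (adjusted p = 0.0198 and 0.00829). Neither change passed after quantile normalization (-0.21 and -0.28, adjusted p = 0.216 and 0.0871), and without M-on 1 and 2 that with M was -0.24 (adjusted p = 0.236). Against littermates C8g changed by -0.82 and -0.68, and these falls passed after quantile normalization too (-0.47 and -0.37, adjusted p = 0.0282 and 0.045).

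The contact phase starts clotting on surfaces and releases kinins. Here F11 fell in the Z line and Klkb1 in the M line, and F12 and Kng1 were called in neither. Klkb1, plasma prekallikrein, read 1382, 1208 and 1222 on Z-on arrays, 1699.7, 1611 and 1534 on Z-off, 1123, 659 and 589 on M-on, 1466, 1469 and 1406 on M-off, and 1521, 1506 and 1529 on littermate arrays. Every M-on array lay below every other array. The fall with M was -0.92 (SE 0.18, adjusted p = 0.001), that with Z was -0.34 (adjusted p = 0.154), and Z-on exceeded M-on by 0.73 (SE 0.18, adjusted p = 0.0367). Without M-on 1 and 2 the on-off changes of Klkb1 differed by 0.93 between the lines (adjusted p = 0.00764), the 1 member called in that fit, where 6.5% of all genes were called, against 0.57 (adjusted p = 0.317) with all arrays. F11, a protease that activates factor IX, read 340.2 to 393 on Z-on and 456 to 811 on Z-off arrays and changed by -0.80 (adjusted p = 0.0137), and in the M line by -0.25 (adjusted p = 0.382). F12, the protease that begins the contact phase, read 1488, 1326 and 1749.8 on Z-on arrays, 1668, 1642 and 1399 on Z-off, 1772, 1677 and 1926 on M-on, 1771.5, 1544 and 1740 on M-off, and 2295.5, 2209 and 2346 on littermate arrays. All 12 transgenic arrays lay below the littermates, and the differences passed for Z-on (-0.59, adjusted p = 0.0102), Z-off (-0.54, adjusted p = 0.0091) and M-off (-0.44, adjusted p = 0.0241). Kng1, the kininogen, changed by -0.28 in each line, not called. Against littermates Kng1 was called lower in both on groups, at -0.50 in each, but not after quantile normalization. A further probe set for Kng1 gave -0.56 with Z and -0.46 with M against littermates, also called.

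The vitamin K-dependent factors carry a modified domain that binds calcium and membranes. Of 7 members 3 fell in the Z line (F2, F10 and Proz), and in the M line 4 fell (F2, F9, Pros1 and Proz) and F7 rose. Proz encodes protein Z, a cofactor in the inhibition of activated factor X, which shares only a letter with the Z form of alpha1-antitrypsin. It read 451, 418 and 589.5 on Z-on arrays, 1094, 948 and 1219 on Z-off, 527, 506 and 453 on M-on, 1006, 1201 and 1185 on M-off, and 893, 839 and 743 on littermate arrays. All 6 on arrays lay below the littermates, and both off groups lay above them. The on-off change of Proz was -1.14 (SE 0.15, adjusted p = 8.98e-05) with Z and -1.16 (SE 0.15, adjusted p = 4.27e-05) with M, the smallest adjusted p of any member in each line. A dimmer probe set for Proz did not follow, with changes of -0.14 and 0.17 (adjusted p = 0.508 and 0.366), and it was called lower in Z-on than in M-on (-0.69, adjusted p = 0.0242), where the brighter probe set gave -0.04.

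F2, prothrombin, the precursor of thrombin, read 4175, 4012 and 4367 on Z-on arrays, 5985, 5245 and 5061 on Z-off, 4492, 4447 and 4560.0 on M-on, 5643, 5859 and 5888 on M-off, and 5994, 6345 and 6899.7 on littermate arrays. The on arrays lay below all others. The change was -0.37 (SE 0.11, adjusted p = 0.0157) and -0.36 (SE 0.11, adjusted p = 0.0132), but after quantile normalization it was -0.08 and -0.14, not called, and without M-on 1 and 2 that with M was -0.34 (adjusted p = 0.0988). F10, whose product converts prothrombin to thrombin, read 1425.5, 1269 and 1495 on Z-on arrays, 2127, 1913 and 1749.5 on Z-off, 1913, 2117.5 and 2082 on M-on, 2045, 2102 and 1954 on M-off, and 2263, 2150.3 and 2333 on littermate arrays. The Z-on arrays lay below all the others. It fell with Z (-0.46, SE 0.12, adjusted p = 0.00642) and changed by 0.00 with M, and Z-on minus M-on was -0.54 (SE 0.12, adjusted p = 0.0233). After quantile normalization the change with Z was -0.23, not called (adjusted p = 0.176). The other probe sets for F10, which were dimmer, gave -0.16 and -0.17 with Z and -0.11 and -0.02 for Z-on minus M-on, none of them called. F7, which starts clotting with tissue factor, read 672, 504 and 582 on Z-on arrays, 489, 525 and 565 on Z-off, 838, 915 and 730.1 on M-on, 495, 471 and 469 on M-off, and 763, 677 and 650.5 on littermate arrays. The M-on arrays lay above all M-off and Z-line arrays and overlapped with the littermates. It rose by 0.77 (SE 0.13, adjusted p = 3.66e-04) with M and changed by 0.14 (adjusted p = 0.42) with Z.

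F7 was below littermates in both off groups (-0.39 in Z-off and -0.53 in M-off, adjusted p = 0.0454 and 0.0111). Z-on lay below M-on, with a difference of -0.49 (adjusted p = 0.0493) that did not pass after quantile normalization (adjusted p = 0.0565). F9, the gene of the haemophilia B factor, fell with M (-0.59, adjusted p = 0.00307) and changed by -0.05 with Z (adjusted p = 0.809). Pros1, a cofactor of activated protein C, fell with M (-0.76, adjusted p = 0.0183) and read 109 to 296 over all arrays. Proc, the precursor of activated protein C, was not called in either line.

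Among the cofactors, F8 rose in both lines and F5 fell in the M line. F8, the haemophilia A factor, was dim. It read 81.2, 77.6 and 100.5 on Z-on arrays, 42.0, 31.9 and 38.5 on Z-off, 95.6, 66.1 and 59.0 on M-on, 34.6, 56.7 and 39.9 on M-off, and 88.5, 73.4 and 75.0 on littermate arrays. The off arrays were the low ones, and the on arrays overlapped with the littermates. The on-off change was 0.94 (SE 0.18, adjusted p = 9.69e-04) with Z and 0.58 (SE 0.18, adjusted p = 0.0135) with M, which after quantile normalization was 0.24 (adjusted p = 0.247) and without M-on 1 and 2 was 0.35 (adjusted p = 0.236). Sinusoidal endothelial cells make factor VIII. The summed signal of 8 of their markers was 1337 to 1408 on Z-on and 843 to 1189 on Z-off arrays. It was 1506 to 2095 on M-on, 962 to 1083 on M-off and 1120.1 to 1494 on littermate arrays. Of the 8 markers 2 were higher in the Z line and 5 in the M line, where 31.8% and 38.1% of all genes were higher. Pecam1 read under 50 on every array. The part of these cells in the F8 change was not tested.

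F5, the cofactor of activated factor X, read 1703, 1586 and 1718 on Z-on arrays, 1721, 1564 and 1780.1 on Z-off, 1434, 1095 and 1024 on M-on, 1374, 1501 and 1769 on M-off, and 1844, 1803 and 1960.1 on littermate arrays. M-on 2 and 3 were the lowest arrays, while M-on 1 lay within the M-off range. The change with M was -0.39 (SE 0.14, adjusted p = 0.0337) and against littermates -0.67 (adjusted p = 0.00498). After quantile normalization the fall with M was -0.21 (adjusted p = 0.294). A further F5 probe set, nearly as bright (means of 1399.6 and 1592), went the other way. It changed by 0.31 with M and by 0.22 in M-on against littermates, neither called (adjusted p = 0.187 and 0.429), and rose in the Z line (0.65, adjusted p = 0.0138), where the brighter probe set changed by -0.02. F3, tissue factor, read 10 to 42.8 over all arrays and was called in none of the comparisons of the main test, but after quantile normalization it was called lower with M (-0.88, adjusted p = 0.0151; -0.47, adjusted p = 0.155, as deposited).

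Fibrinogen is the clot protein itself, built from chains encoded by Fga, Fgb and Fgg. Fga fell in both lines, and F13b, the carrier subunit of the factor XIII enzyme that crosslinks fibrin, fell in the M line (-0.68, adjusted p = 0.00496). Fga read 6104, 5627 and 5404 on Z-on arrays, 9836, 8518 and 8980.1 on Z-off, 6193, 5816 and 6621 on M-on, 7848, 8908 and 9590.4 on M-off, and 8359, 10927 and 14061 on littermate arrays. The on arrays lay below all the others, and the littermates spread widely. The on-off change was -0.67 (SE 0.16, adjusted p = 0.00555) with Z and -0.50 (SE 0.16, adjusted p = 0.0221) with M. The change of Fga with M was not called after quantile normalization (-0.23, adjusted p = 0.181) or without M-on 1 and 2 (-0.40, adjusted p = 0.211). Fgg read 5973, 5989.5 and 5831 on Z-on arrays, 8067, 6935 and 7016 on Z-off, 7345, 5828 and 6593 on M-on, 7000.3, 7492 and 7640.1 on M-off, and 8386, 11216 and 12815 on littermate arrays. All 12 transgenic arrays lay below the littermates. Its on-off changes of -0.30 and -0.17 were not called, nor were those of Fgb (-0.39 and -0.28).

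Against littermates all 3 fibrinogen genes were called lower in both on groups, at -0.93, -0.80 and -0.84 with Z and -0.81, -0.73 and -0.70 with M (Fga, Fgb and Fgg, with adjusted p from 0.0032 to 0.00592). After quantile normalization none of these 6 values passed, Fgb turned to 0.08 and 0.05 and Fgg with M to 0.03, and the others were -0.19 and -0.06 (Fga) and -0.08 (Fgg with Z).

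Of the fibrinolysis and other plasma factors, Plg and Vtn fell in both lines and Hgfac rose in the Z line. Vtn, vitronectin, which binds the nascent complement pore and the plasminogen activator inhibitor, read 3969, 3419 and 3992 on Z-on arrays, 6946, 5849 and 5758 on Z-off, 4185, 4369.5 and 4989 on M-on, 5584, 6491 and 6835 on M-off, and 6099, 6278 and 6824 on littermate arrays. The on arrays lay below all 9 others. It changed by -0.70 (SE 0.13, adjusted p = 9.58e-04) with Z and -0.48 (SE 0.13, adjusted p = 0.00772) with M, and a further probe set gave -0.68 and -0.47. The change of Vtn with M was not called after quantile normalization (-0.27, adjusted p = 0.0685) or without M-on 1 and 2 (-0.33, adjusted p = 0.167). Plg, the precursor of plasmin, changed by -0.36 and -0.35 (adjusted p = 0.0466 and 0.0443), and neither passed after quantile normalization (-0.09 and -0.13), nor that with M without M-on 1 and 2 (-0.41, adjusted p = 0.0893).

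Hgfac, a protease that activates hepatocyte growth factor, differed between the lines whether or not the transgene was on. It read 710.4, 732 and 749 on Z-on arrays, 537, 608 and 599 on Z-off, 1114, 1113 and 1146 on M-on, 1172, 1097 and 989 on M-off, and 954, 932 and 916 on littermate arrays. All 6 Z-line arrays lay below the littermates and all 6 M-line arrays above them. In the main test neither M-on (0.26) nor M-off (0.21) was called against littermates, though both were with the constant 64. Z-off minus M-off was -0.88 (SE 0.11, adjusted p = 0.00653) and the on groups differed by -0.61 (SE 0.11, adjusted p = 0.0112). Hgfac was the 1 member called in Z-off minus M-off in the main test, where 0.129% of all genes were called. With Z on it rose by 0.32 (adjusted p = 0.0279) over Z-off and was still below littermates (-0.35, adjusted p = 0.0493). Of the fits that left out 1 array, that call passed only in the fit without M-on 1.

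**Figure D4:**
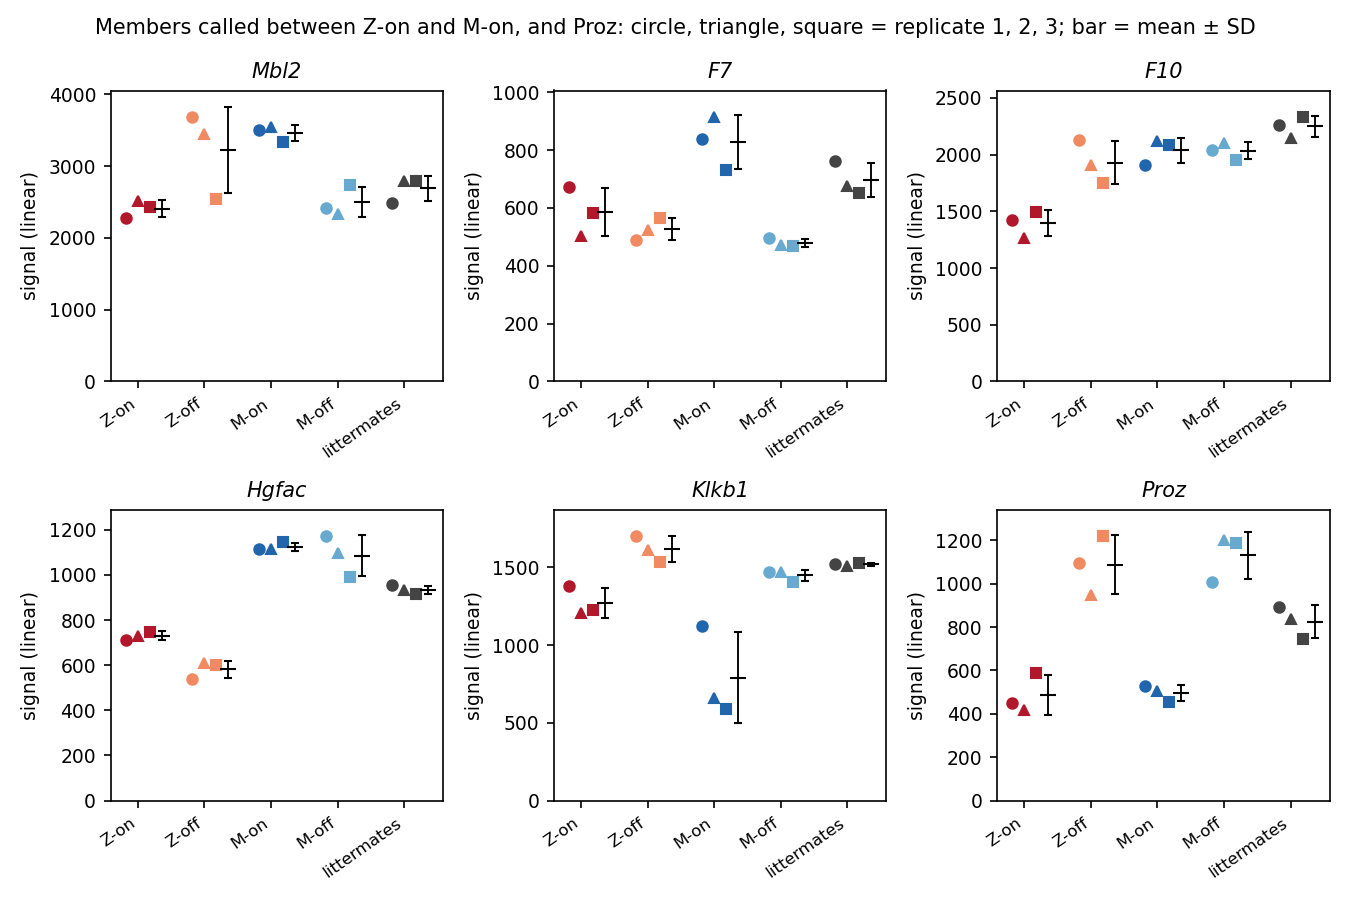
Linear signal on each array, by group, of the 5 members called between Z-on and M-on and of Proz, with replicates 1, 2 and 3 as circle, triangle and square and a bar for the mean ± SD of 3 arrays. Mbl2, F7, F10 and Hgfac are lower and Klkb1 is higher on Z-on than on M-on arrays, while Proz, on its brighter probe set, reads 418 to 589.5 and 453 to 527 there.

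Between the forms, both expressed, 5 of 35 members were called. Mbl2, F7, F10 and Hgfac were lower with Z and Klkb1 was higher, where 1.48% of all genes were lower and 3.68% higher. The median difference of the members was -0.07, against -0.03 over all genes. For Mbl2 the difference was -0.52 (adjusted p = 0.046). Without M-on 1 and 2, a fit in which the lone M-on array is assumed to vary like the other groups, F7 and Mbl2 no longer passed, and C4bp, C6, C8b (lower with Z), F5 and Hc (higher with Z) did, so that 8 members were called, against 10.2% of all genes. In a fit of these groups alone 0 members were called, and with the constant 1 Hgfac alone was. Leaving out 1 array at a time left Hgfac called each time and F7 in none. There were 7 calls without M-on 1 and 1 call without M-on 2 or any of the Z-on arrays. The shares of all genes in the fits that left out 1 array were not counted. After quantile normalization the calls were 2 lower (F10 and Hgfac) and 2 higher (Klkb1 and F5), against 2.28% and 4.01% of all genes.

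Set against littermates, every member called in the on groups was lower in the main test. With Z, 16 members were lower and 0 higher, where 4.74% of all genes were lower and 7.55% higher, and with M, 19 were lower and 0 higher, where 9.48% were lower and 14.6% higher. Both comparisons use the same 3 littermate arrays, in which the hepatocyte marker sum was highest. Of the 12 hepatocyte markers 9 were lower than in littermates with Z and 10 with M, and their part in the members' values was not tested. Among genes with a mean signal of at least 1000, 26.6% and 31.5% were lower. After quantile normalization 4 members were lower with Z (Masp2, C8g, F10 and Proz), against 4.52% of all genes, and 10 with M (Masp2, Hc, C6, C8a, C8g, C9, Klkb1, F9, F5 and Proz), against 9.74%, and Mbl2 was higher with M (0.61, adjusted p = 0.0101), as were 11.4% of all genes. Without M-on 1 and 2, 9 members were lower with M, against 9.05%.

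**Figure D5:**
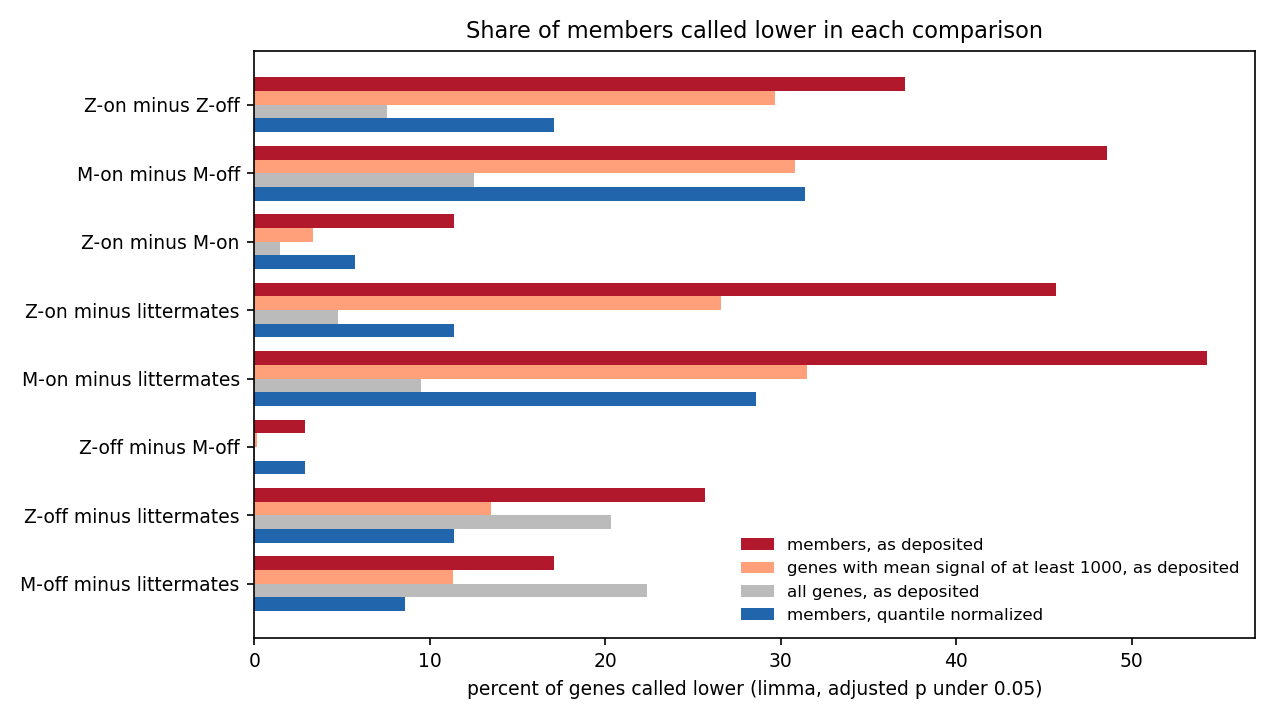
Bars give the percent of genes called lower (limma, adjusted p under 0.05) in each of 8 comparisons, for the 35 members, for genes with a mean signal of at least 1000 and for all genes as deposited, and for the members after quantile normalization. The members' share with Z against littermates is 45.7% as deposited and 11.4% after quantile normalization.

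The off groups had doxycycline and the littermates had none, so the drug and the line cannot be told apart between them. With the transgene off, fewer members differed from littermates. In Z-off 9 were lower (Cfb, Cfi, C8g, F12, F7, Proc, F8, Fgg and Hgfac) and 0 higher, where 20.3% of all genes were lower and 4.09% higher. In M-off 6 were lower (Cfi, Hc, F12, F7, F8 and Fgg), and Masp2 and Proz were higher (0.52 and 0.45, adjusted p = 0.0409 and 0.0427), where 22.4% of all genes were lower and 3.99% higher. These shares of members lower, 25.7% and 17.1%, lie near those of all genes. After quantile normalization F12, F7, F8 and Hgfac were lower in Z-off and Hc, F12 and F7 in M-off, against 8.07% and 8.51% of all genes. Z-off had 4 to 6 calls without any 1 of its own or the littermate arrays, and M-off had 3 without littermate 3 and 4 without littermate 2 or M-off 1. Shares of all genes were not counted in those fits. In all, 30 of 35 members were called in at least 1 of the 9 comparisons, and Masp1, C2, C4bp, C8b and F3 in none, all in the main test.

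Genes around the cascades moved in both directions. Their counts stand beside the shares of all genes given above, 31.8% higher and 7.56% lower with Z and 38.1% and 12.5% with M, and after quantile normalization 15.8% and 10.4% with Z and 23.6% and 15.4% with M. Of 13 measured complement regulators and receptors outside the members, 6 rose in the Z line, and in the M line 6 rose and 1 fell. After quantile normalization 3 were higher and 1 lower with Z, and 3 higher and 2 lower with M. C3ar1, the receptor of the fragment C3a, rose from a mean of 8.53 to 82.9 with Z and from 12.7 to 84.7 with M (2.02 and 1.85 on the log2 scale, adjusted p = 9.27e-05 and 9.64e-05). Cd46, a membrane regulator of complement, rose from 17.1 to 52.1 with Z and from 10.1 to 62 with M (1.04 and 1.59). After quantile normalization the change of Cd46 with Z was 0.54, not called (adjusted p = 0.0607). Of 7 measured genes of C1, ficolins and properdin, 3 fell and 2 rose with Z and 1 rose with M. In Z-on 4 were lower and 0 higher than in M-on, against 1.48% and 3.68% of all genes. Among them were properdin, Cfp, which stabilizes the alternative pathway enzyme (-1.63, adjusted p = 0.00643), and C1qa, a chain of C1q (-1.39, adjusted p = 0.00976). For genes outside the members, differences between Z-on and M-on without M-on 1 and 2 are not given here. C1q and properdin are made largely by myeloid cells. The Kupffer cell marker sum was also lower on Z-on than on M-on arrays, as given above, and its part in these differences was not tested. Fcna, a ficolin, rose with M by 1.36 (adjusted p = 2.21e-04). In this list of C1, ficolins and properdin, 1 gene was higher and 3 lower with Z after quantile normalization, and 1 higher and 0 lower with M. Of its 7 genes, 0 were higher and 4 lower than littermates in Z-on, and 1 higher and 0 lower in M-on.

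Of 11 clotting inhibitors, 3 fell and 2 rose with Z, and 3 fell and 1 rose with M. The protease inhibitor A2m rose from 16.2 to 44 with Z and from 9.03 to 41.2 with M (0.92 and 1.18, adjusted p = 0.00213 and 2.35e-04), and after quantile normalization its change with Z was 0.43, not called (adjusted p = 0.13). For the inhibitors that normalization left 1 higher and 0 lower with Z, and 2 higher and 4 lower with M. Hrg, the histidine-rich glycoprotein of plasma, rose with Z by 0.52 (adjusted p = 0.00526). Relative to littermates, 0 of the 11 inhibitors were higher and 4 were lower in each on group. So neither A2m nor Hrg was called above littermates. Of 7 measured regulators of fibrinolysis, 2 rose and 2 fell with Z and 5 rose with M, and after quantile normalization 1 was higher and 1 lower with Z and 4 were higher with M. Plaur, the urokinase receptor, rose from 13.1 to 58.1 with Z and from 11.2 to 69.7 with M (1.36 and 1.64, adjusted p = 2.40e-04 and 3.56e-05). Of these 7 regulators, 0 were higher and 1 lower than littermates in Z-on, and 1 higher and 0 lower in M-on. Plaur in Z-on was therefore not called above littermates. Thbs1, an adhesive protein that platelets also carry, was dim and rose with M from 6.83 to 32.6 (1.11, adjusted p = 7.29e-04). After quantile normalization its rise with M was 0.72 (adjusted p = 0.0313). Habp2, a plasma protease that can activate factor VII, fell with Z by 0.76 (adjusted p = 3.45e-04) and was lower in Z-on than in M-on (-0.57, adjusted p = 0.0235).

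Among 7 measured genes of the vitamin K cycle and of factor secretion, 2 rose with Z, and 2 rose and 2 fell with M. After quantile normalization 2 were higher and 1 lower with Z, and 2 higher and 2 lower with M. Lman1, the cargo receptor that carries factors V and VIII out of the endoplasmic reticulum, rose with Z from 973 to 1565 (0.67, adjusted p = 0.00209), and Vkorc1, the enzyme that recycles vitamin K, by 0.32 (adjusted p = 0.026). Furin, a protease that trims precursors in the Golgi, rose with M by 0.64, and Tpst2, which sulphates tyrosines, fell by 0.69 (adjusted p = 6.91e-04 and 0.00115). Neither on group had any of these 7 genes, Lman1 and Vkorc1 included, called above littermates, and each had 1 called lower. Of 7 measured endothelial and platelet genes, 3 rose and 1 fell with Z and 2 rose and 1 fell with M, and after quantile normalization 1 was higher and 1 lower with Z and 1 higher and 2 lower with M. Itga2b, a chain of the platelet fibrinogen receptor, rose by 1.25 and 1.30. It was not called against littermates, at 0.22 in Z-on and 0.21 in M-on (adjusted p = 0.537 and 0.496). None of this list was called above littermates in either on group, and 0 were lower in Z-on and 1 in M-on. F2r, the thrombin receptor, fell with M from 232 to 59.9 (-1.79, adjusted p = 1.94e-04) and was 1.95 higher in Z-on than in M-on (adjusted p = 0.00453).

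Of 12 measured transcription factors of liver plasma protein genes, 6 rose and 1 fell with Z, and 1 rose and 2 fell with M, and after quantile normalization 5 were higher and 1 lower with Z and 1 higher and 2 lower with M. Cebpd, a C/EBP factor of the acute phase, rose with Z from 42.8 to 102 (1.01, adjusted p = 0.00188) and was 0.97 higher in Z-on than in M-on (adjusted p = 0.0239). Onecut1, a hepatocyte factor, rose with Z by 1.37 (adjusted p = 0.0108), and its change after quantile normalization was 0.99, not called (adjusted p = 0.0671). Of the 12 factors, 0 were higher and 1 lower than littermates in Z-on, so neither Cebpd nor Onecut1 was called above them. In M-on 2 factors were higher and 1 lower than littermates. With M, Cebpa, a C/EBP factor of resting hepatocytes, rose by 0.66 (adjusted p = 0.00208) and Foxa1, which opens chromatin at liver genes, fell by 1.61 (adjusted p = 0.00305) but without M-on 1 and 2 changed by -1.40, not called (adjusted p = 0.0707).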

How the data were processed

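The deposited values are microarray intensity values, 1 per probe set and array, on a linear scale from 0.0 to 22995.4. RMA is the tool in the submitters' processing notes, with no version given, but the deposited values are linear and include 0, so they were used as scaled signals, and the authors' scaling is not given in the sources used.

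Of 22690 probe sets, 20380 had 1 gene in the platform annotation, 691 several and 1555 none; 64 were controls. The brightest probe set with 1 gene stood for each gene, so 12393 genes entered, and symbols were checked against RefSeq names of GRCm38.p6 (20359 probe sets matched). Of the members, 7 had several probe sets. The constant 16 was added, log2 taken, and limma 3.58.1 in R 4.3.3 was fitted over the 15 arrays together, each group having its own mean (10 residual and 3.88 prior degrees of freedom). Tests were two-sided, adjusted by Benjamini-Hochberg within each of 9 contrasts, and called under 0.05. The fit was tested on simulated data.

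Values on every array are given for the 2 members of each role with the smallest adjusted p, for members called between Z-on and M-on, and for F2 and Fga. Up to 2 called genes with the smallest adjusted p are named per list of other genes. Members and lists were chosen with earlier results of these data known. Alternatives were quantile normalization, constants of 1 and 64, genes above the 40th percentile (7435), only the groups compared, a replicate block, all probe sets, and arrays left out. The number of arrays limits the precision.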

Additional observations from a re-analysis of the deposited data

Results flagged for a closer look

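Mbl2 stood out because its on-off change ran in opposite directions in the lines, with every Z-on array below every Z-off array and every M-on array above every M-off array. Of all genes, 12.8% had all Z-on arrays below all Z-off arrays and 44.2% had all M-on arrays above all M-off arrays. The share of all genes that were apart in opposite directions in the lines was not counted. The difference of the on-off changes was -0.87 on the log2 scale, which did not pass in limma's test (adjusted p = 0.0662). It passed with the constant 64, without dim genes, and without M-on 1 or Z-off 3.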

How the results depend on the processing

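Counts are members called of 35. Beyond the main test, shares of all genes called were counted only after quantile normalization and without M-on 1 and 2. Quantile normalization gave 8 for Z-on minus Z-off, 13 for M-on minus M-off, 4 and 11 for Z-on and M-on minus littermates, 4 for Z-off minus littermates and 3 for M-off minus littermates, against 15, 20, 16, 19, 9 and 8. With only the groups compared in the fit, the counts were 13 for M-on minus M-off, 0 for Z-on minus M-on (5 in the main test), 4 for M-on minus littermates, 2 for Z-off minus M-off (against 1) and 3 for Z-off minus littermates. Without M-on 1 and 2, which leaves 1 array assumed to vary like the other groups, they were 10 for M-on minus M-off, 8 for Z-on minus M-on, 9 for M-on minus littermates and 1 for the difference of the on-off changes (against 0). That difference also had 1 call with the constant 64 and 1 without dim genes. The constant 1 left 1 call for Z-on minus M-on and 5 for M-off minus littermates. The replicate block left 3 for Z-on minus M-on and moved no other count by over 1.5 times. Same-numbered arrays did not deviate together (correlations of -0.171 to 0.0662 over 30 pairs), which cannot show whether the mice were paired. The labels do not say that the numbers pair them.

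Leaving out 1 array at a time gave 11 to 17 members for Z-on minus Z-off, 14 to 20 for M-on minus M-off, 1 to 7 for Z-on minus M-on, 12 to 18 and 13 to 19 for Z-on and M-on minus littermates, 1 to 1 for Z-off minus M-off, 4 to 9 for Z-off minus littermates, 3 to 8 for M-off minus littermates and 0 to 3 for the difference of the on-off changes. Of 462 alternative values of the 21 members with values on every array, each taken in the comparison of its smallest p, 447 kept direction and call, 13 lost the call, 2 gained it and 0 reversed. The causes of these moves were not tested.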
